A study of Mus musculus with 30 samples.

Results

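L2 and CR1 are ancient LINEs, long interspersed elements that once copied themselves through an RNA intermediate and that lost this ability long ago, so that mouse copies are truncated, diverged remnants. Their RNA is normally part of the transcript of the gene they lie in, as an exon, a 3′ untranslated region (UTR) or an intron, rather than the product of a promoter of their own. The hexamer AATAAA, which some of these remnants carry, is the main polyadenylation signal in mammals: it lies a short way upstream of the place where the transcript is cut and given its poly(A) tail. The members described here are the rows of a table of short genomic windows whose element name, stripped of spaces, is exactly L2 or CR1. There were 512 such windows among 205758 in the table, 413 of L2 and 99 of CR1. In the whole table, 36555 windows had no element name. Of these, 499 were 25 bases long and the longest had 46 bases. A further 24 rows carried composite names that include L2 or CR1 and are not members.

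RNA was measured in sorted retinal ganglion cells, the output neurons of the retina whose axons form the optic nerve. The mice of all groups carried LSL-Cas9-GFP and Vglut2-Cre, so that Cas9 and GFP are made in cells with Vglut2 promoter activity, and all received AAV2 into the vitreous. In the SSRP1KO groups the virus carried sgRNAs against Ssrp1, which encodes a subunit of the histone chaperone FACT, and in the NT groups non-targeting sgRNAs. Cells were collected without crush (no crush) and 1, 2, 3 and 4 days after optic nerve crush (1dpc to 4dpc), which gives 10 groups of 3 libraries, 30 in all. Cells were sorted as live cells with CD90.2, GFP or the mCherry that comes with the sgRNAs, alone or combined, so a sorted cell need not carry the sgRNAs. Whether the 3 libraries of a group stem from different animals is not stated in the labels; the p-values therefore rest on the spread between libraries, part of which may be technical. The series asks how the loss of Ssrp1 changes the gene expression of these neurons after injury.

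The gene counts per library ran from 9715972 to 34420978 and the repeat window counts from 3949963 to 17906273. Levels are given throughout as CPM, counts per 1000000 gene counts of the same library. A floor of 3 counts corresponds to 0.0872 to 0.309 CPM, and covers counting error only. The summed level of 11 ganglion cell markers was 5015 to 9769 CPM, against 0 to 6.51 for 3 endothelial markers and 123 to 3911 for 6 rod markers, with the highest rod value in SSRP1KO 3dpc. The lists of cone, bipolar, amacrine, Muller glia and astrocyte, and microglia and macrophage markers summed to 4.73 to 246, 70.7 to 371, 54.1 to 574, 68.0 to 443 and 12.7 to 236 CPM. Ssrp1 itself had 27.5 CPM in SSRP1KO 1dpc against 70.0 in NT 1dpc, and 40.7 in SSRP1KO 3dpc against 88.9 in NT 3dpc, but 58.0 in the libraries labelled SSRP1KO no crush against 59.6 in NT no crush. Its difference as the mean of the 5 times was −0.77 ± 0.11 on the log2 scale (SE; edgeR quasi-likelihood test, adjusted p = 3.84e-05). Of the single times, 3dpc passed (adjusted p = 0.0271) and 1dpc did not (0.0603). At 2dpc Ssrp1 had 43.8 CPM in SSRP1KO against 67.9 in NT (adjusted p = 0.170), and at 4dpc 47.9 against 77.5 (0.108). The arms overlapped on these days. NT 2dpc replicate 3 had 33.5 (SSRP1KO 2dpc 38.1 to 52.4) and NT 4dpc replicate 1 had 43.4 (SSRP1KO 4dpc 43.7 to 53.2). Of the 30 libraries 3 stood apart, with a best correlation under 0.95 with another library of their group: SSRP1KO 2dpc replicate 5, NT 2dpc replicate 3 and SSRP1KO no crush replicate 3. A score of Xist against Y-linked genes showed that libraries differed in sex, and between NT 1dpc (4.43 to 10.6) or NT 4dpc (5.31 to 12.1) and NT no crush (−6.89 to 0.044), and between SSRP1KO 1dpc or 2dpc (−7.46 to −6.79) and SSRP1KO no crush (10.5 to 11.3), the scores did not overlap. There, sex and day cannot be told apart without a model for the score. The arms did not overlap either without crush, at 1dpc or at 3dpc (3.41 to 11.5 in SSRP1KO against −5.09 to 2.38 in NT), so that sex and arm cannot be told apart at those times.

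Few L2 and CR1 windows carried most of the RNA, and those lay in exons. Exons held 32.2% of the L2 windows and 91.8% of the L2 counts, and 25.3% of the CR1 windows and 86.6% of the CR1 counts. For comparison, the share of counts in exons was 77.3% for MIR, another ancient element, 57.1% for B4, 40.5% for Alu, 38.5% for ERVK, 34.1% for L1 and 22.8% for B2, the last of which is a young mouse element. Introns held 44.6% of L2 windows and 4.72% of L2 counts, and 51.5% of CR1 windows and 4.66% of CR1 counts. The remaining 23.2% of windows in each family lay outside annotated genes, with 3.52% of the L2 counts and 8.74% of the CR1 counts. The median exonic window had 201 counts over all 30 libraries for L2 and 675 for CR1. Of the 512 windows 62 had no count in any library, and a library had counts in 168 to 333 of them.

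**Figure D1:**
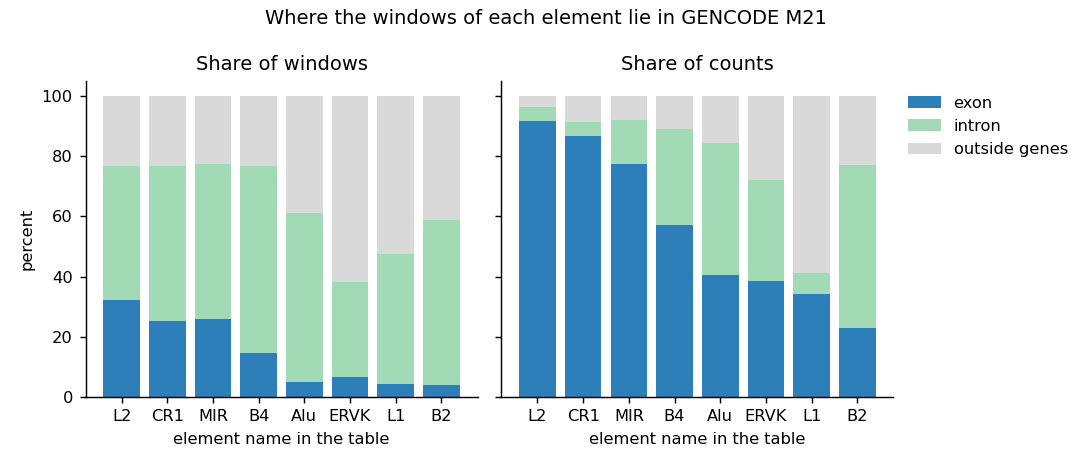
Share of windows and share of counts, in percent, that lay in exons, introns and outside genes for L2, CR1 and 6 other elements, in GENCODE M21 (GRCm38). L2 has 32.2% of its windows but 91.8% of its counts in exons, the highest share of the elements drawn, and B2 has 22.8% of its counts there.

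Many exonic L2 windows share a stretch of sequence, the hexamer AATAAA and the letters before it; windows with the hexamer held 43.4% of all L2 counts. The 12 windows below are shown because the results turn on them; they are read from GENCODE M21 transcripts of GRCm38 in the sense of the gene, 5′ to 3′, and capitals mark AATAAA.
Ncdn (L2, chr4:126743773-126743797, minus strand): gtgcacatgtggacactcAATAAAt
Slc43a2 (L2, chr11:75577529-75577553, plus strand): ggcacacagtaagcacttAATAAAt
Prmt2 (L2, chr10:76207236-76207260, minus strand): agtacatgctcAATAAAtatttttt
Gria4 (L2, chr9:4417907-4417931, minus strand): tattgtaggtgcttAATAAAtattt
Caprin1 (L2, chr2:103767122-103767146, minus strand): acatagtaggcactcAATAAAtact
Ampd3 (L2, chr7:110811965-110811989, plus strand): gaacatagtaggtgctcAATAAAta
Mrm1 (L2, chr11:84813083-84813107, minus strand): atgtatgtagtaggtgctcAATAAA
Pnkd (L2, chr1:74353642-74353666, plus strand): ctggcacacagtaggcgctcaataa
Cdkn1a (L2, chr17:29100675-29100699, plus strand): tcacacccgaccccaaagctggtgc
Pgm2l1 (CR1, chr7:100275322-100275346, plus strand): ttgtttcagaatcacgtgagaatga
Thra, first window (L2, chr11:98768876-98768900, plus strand): gctgttttataattagtcgggcatg
Thra, second window (L2, chr11:98768956-98768980, plus strand): tgctgggcctggcatagagtaggtt

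The first 7 of these end in or run through AATAAA, the Pnkd window stops 1 base short of it, and the Cdkn1a and Pgm2l1 windows and both Thra windows, the first of which has the highest L2 level, have none. Of the 158 exonic members 151 lay wholly inside an exon, 130 of L2 and 21 of CR1. AATAAA stood in gene sense in 78 of the 130 L2 windows (60.0%), in 3 of the 21 CR1 windows (14.3%), in 30.1% of MIR windows, in 21.6% of L1 windows and in 27.1% of all 43643 other exonic windows of the table. Most of these other windows (32925) had no element name, and among the 10718 with another name the share was 17.9%. Read on the opposite strand, AATAAA stood in 4 of the L2 windows (3.08%). The most frequent 9-letter word of the L2 windows, CTCAATAAA, contains the hexamer and was found in 36 of them (27.7%), in 4.05% of MIR windows and in 0.506% of the other exonic windows, and in none of the L2 windows on the opposite strand. A match is a description of the letters and not a site in use.

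The L2 windows also lay at transcript ends. Of the 130, 96 (73.8%) were within 50 bases of an annotated transcript end, with a median distance of 15 bases, against 46.3% and a median of 110 bases for the other exonic windows of the table. Among the 10718 of those others that had an element name, it was 37.4% with a median of 305 bases. For MIR the share was 55.5%, and for CR1 it was 7 of 21 (33.3%) with a median of 212 bases. Where L2 windows held the hexamer, its first base lay a median of 22 bases (interquartile range 20 to 26.5) before the nearest transcript end, and 67 windows had both the hexamer and an end within 50 bases. Windows near an end carried 65.1% of all L2 counts and 3.65% of all CR1 counts. By gene part, 94 of the 130 L2 windows were in 3′ UTRs, 2 in coding sequence and 32 in noncoding transcripts, and 12 of the 21 CR1 windows were in 3′ UTRs, 4 in coding sequence (of Camta1, Efr3b, Ppp4r3a and Cdadc1) and 5 in noncoding transcripts.

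**Figure D2:**
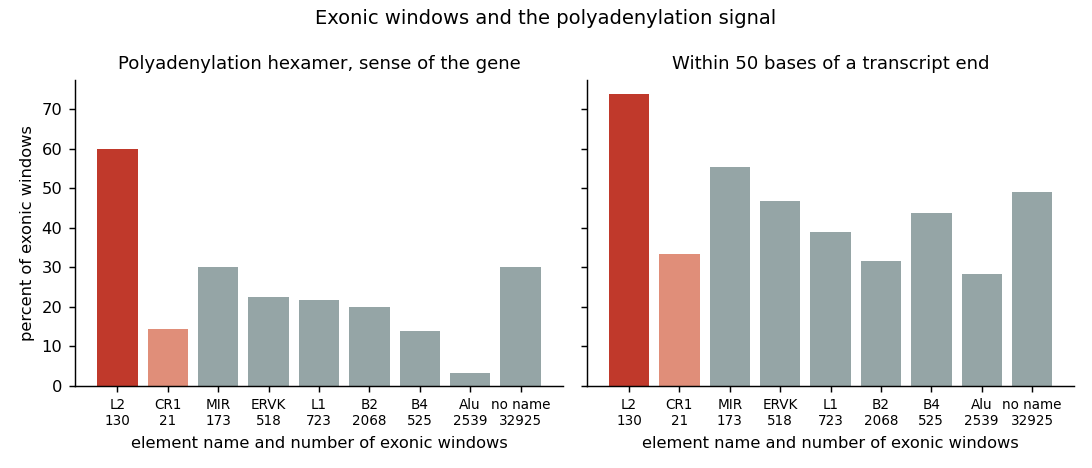
Percent of exonic windows, by element, that hold the polyadenylation hexamer in gene sense and percent that lie within 50 bases of an annotated transcript end; windows with no element name are drawn too. L2 windows stand at 60.0% and 73.8%, CR1 windows at 14.3% and 33.3%.

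By level, a handful of windows dominated both families. All windows named here have 25 bases, so their levels can be set side by side. The highest L2 level was in a 3′ UTR window of Thra, which encodes thyroid hormone receptor alpha, with a mean of 47.3 CPM over the 30 libraries (lowest 16.3, highest 85.9). A second Thra window, 80 bases downstream, had a mean of 32.8 (13.8 to 62.7). Both also lie within the annotation of Nr1d1, a clock repressor encoded on the opposite strand, and since the strand setting of the counting is not given, reads of the 2 genes cannot be told apart there. The window in Ncdn, which encodes the neuronal protein neurochondrin, had a mean of 40.2 (25.6 to 64.9), and that in Slc43a2, which encodes a transporter of large neutral amino acids, 24.1 (8.91 to 60.3). Other windows among the 10 highest were one shared by Prelid1 and the overlapping Mxd3 with 12.3 (7.99 to 31.8), Prmt2 (a protein arginine methyltransferase) with 7.61, Nicn1 with 7.09, Arhgef17 with 6.90 and Cdipt (phosphatidylinositol synthase) with 6.71.

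In CR1 the 3′ UTR window of Pgm2l1, which encodes glucose 1,6-bisphosphate synthase, had a mean of 45.2 CPM (20.6 to 80.2) and alone held 35.1% of all CR1 counts. The Camta1 window held 22.0%, with a mean of 27.98 (14.4 to 45.6). Camta1 encodes a calmodulin-binding transcription activator, and the window lies in its coding sequence at chr4:151074000-151074024 on the minus strand. In the transcript, with the window in capitals and its neighbouring bases in lower case, it reads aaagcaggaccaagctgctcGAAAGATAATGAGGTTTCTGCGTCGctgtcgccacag. The 3′ UTR window of Bmpr2, a BMP type 2 receptor, had a mean of 9.42, that of 1190002N15Rik 7.69, and a window outside genes at chr6:36841981-36842005 had 6.56. That last window reached 20.2 in NT 2dpc replicate 3, one of the libraries that stand apart, against 7.58 and 7.34 in the other 2 libraries of its group. The 5 highest windows held 47.8% of the L2 counts and 75.5% of the CR1 counts. Of these 15 windows 8 were called in none of the 15 comparisons below.

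The count of a window can be large beside that of its gene. Per 100 counts of its gene, the Slc43a2 window had 24.1, Cdipt 14.4, Ncdn 12.1, Mrm1 10.3, Prmt2 8.25, Ampd3 6.91, Pgm2l1 6.29, Camta1 2.67, Cdkn1a 1.73, Bmpr2 1.32 and Caprin1 0.864. The Thra windows had 73.0 (up to 100.1 in 1 library) and 50.3 window counts per 100 gene counts. Reads were paired, so a fragment may be counted in both windows and these values cannot be added. In the library at 100.1 the window's count was above that of the gene, so it need not be contained in it.

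Each window of the whole table that passed the filter on low counts, 54536 in all, was tested against the replicate spread with edgeR. The filter kept 168 of the 512 members, 131 of L2 and 37 of CR1, of which 100 were exonic; they held 97.4% of the members' counts. The counts below are over these 168, and the share of all windows called is given beside each. After crush in SSRP1KO cells, no member was called at 1dpc (0.462% of all windows), 1 rose and 3 fell at 2dpc (1.68%, with 0.944% higher and 0.733% lower), 2 rose and 5 fell at 3dpc (1.93%, with 0.974% and 0.952%), and 1 rose and 7 fell at 4dpc (2.01%, with 0.832% and 1.18%). The called members made up 2.38%, 4.17% and 4.76% of the 168 at 2dpc, 3dpc and 4dpc. In NT cells, none was called at 1dpc (0.174%), 4 rose and 4 fell at 2dpc (3.28%, with 2.55% higher and 0.735% lower), 7 rose and 7 fell at 3dpc (5.02%, with 2.83% and 2.19%), and 7 rose and 8 fell at 4dpc (7.1%, with 4.23% and 2.87%). These made up 4.76%, 8.33% and 8.93% of the 168. From 2dpc on, the members' shares in either direction were above those of the table in both arms. They were 4.76% against 2.01% in SSRP1KO 4dpc and 8.93% against 7.1% in NT 4dpc. Falls alone were above the table's share on these days. Rises alone were above it only at 3dpc, and at 2dpc and 4dpc they were below it in both arms. These shares rest on 4 to 15 windows, which at 4dpc include both windows of Thra, and are not read as a trait of the members. At an unadjusted p under 0.05 there were 19 members in SSRP1KO 1dpc and 16 in NT 1dpc, and DESeq2 called 3 and 1. Scaling by repeat-table totals in place of gene-table totals gave 0 higher and 21 lower in SSRP1KO 1dpc, 1 and 12 in SSRP1KO 4dpc, 4 higher and 2 lower in NT 2dpc, 6 and 2 in NT 3dpc, and 1 and 6 in SSRP1KO 3dpc, and TMM factors gave 1 and 1 in SSRP1KO 2dpc.

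In these 8 comparisons there were 56 calls over 19 different windows, 15 of them exonic. Of the 19, 10 were called in SSRP1KO cells, 17 in NT cells and 8 in both, none with opposite signs. Where the gene was tested, it was called with the same sign in 48 of 50 cases, beside 4.79% to 13.8% of all genes called in the SSRP1KO comparisons and 2.05% to 27.4% in the NT comparisons. The exceptions were Mrm1 in NT 2dpc, whose gene had an adjusted p of 0.0586 by edgeR, and Bmpr2 in SSRP1KO 2dpc, whose gene had 0.102. The 50 cases are not independent. They repeat the same windows over days against the same uncrushed libraries, and a window's reads can also be counted for its gene. Agreement in sign is therefore partly built in. Beside these calls, the summed ganglion cell markers also stood lower, at 5015 to 5139 CPM in SSRP1KO 4dpc against 7462 to 8351 in SSRP1KO no crush, and at 6263 to 8517 in NT 4dpc against 9236 to 9769 in NT no crush. Their part in the results was not tested, and in sorted bulk samples fewer cells of a type and less RNA per cell cannot be told apart.

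Among the windows that rose, that of Cdkn1a had the largest called increase at 4dpc in either arm, leaving aside windows with no count in NT no crush (Rin1 and Sh2d6). Cdkn1a encodes p21, a cell cycle inhibitor and target of p53, and its L2 window lies 23 bases before the nearest annotated end. In SSRP1KO cells its level was 1.68, 1.304 and 0 CPM without crush, 0.741, 1.11 and 1.57 at 1dpc, 3.23, 7.52 and 3.03 at 2dpc, 6.60, 5.14 and 5.01 at 3dpc, and 5.404, 4.77 and 4.11 at 4dpc. In NT cells it was 0, 0.0383 and 0.487 without crush, 0.411, 0.626 and 0.284 at 1dpc, 3.27, 3.81 and 4.53 at 2dpc, 9.03, 13.7 and 13.3 at 3dpc, and 6.89, 9.40 and 9.33 at 4dpc. From 2dpc on, no library of either arm overlapped the uncrushed libraries of that arm. By edgeR the increase at 4dpc was 2.22 ± 0.57 on the log2 scale in SSRP1KO cells (SE, n = 3 against 3; adjusted p = 0.0276), with means of 4.76 ± 0.649 at 4dpc and 0.995 ± 0.883 without crush (SD). In NT cells it was 5.42 ± 0.67 (adjusted p = 6.59e-07), with means of 8.54 ± 1.43 at 4dpc and 0.175 ± 0.271 without crush. The gene itself changed by 2.93 in SSRP1KO cells and 5.397 in NT cells. The difference between the 2 crush responses did not pass across the table (unadjusted p = 0.000925, adjusted p = 0.385). The increase in SSRP1KO 4dpc was lost without SSRP1KO no crush replicate 3, the library with no count (1.66, adjusted p = 0.123), and without SSRP1KO no crush replicate 2 or SSRP1KO 4dpc replicate 1, 2 or 3 (adjusted p from 0.0532 to 0.111). The calls in NT cells at 2dpc to 4dpc held in all alternatives. The NT no crush levels of 0 and 0.0383 lie under the floor of 3 counts, so the size of the NT change is poorly determined. At 4dpc it ran from 4.95 to 8.35 over the 37 alternatives.

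Prmt2, Ampd3 and Mrm1 rose in NT cells. Prmt2 averaged 12.2 ± 4.47 CPM in NT 4dpc (17.4, 9.81 and 9.42) and 4.19 ± 0.588 in NT no crush (3.95, 4.86 and 3.76), an increase of 1.53 ± 0.32 on the log2 scale (edgeR, adjusted p = 0.00193; gene 1.40). The lowest library at 4dpc stood above the highest without crush. In SSRP1KO cells the same window had 6.998, 6.55 and 6.78 at 4dpc against 3.18, 7.75 and 7.94 without crush, and was not called on any day. The Prmt2 gene had 0.60 in SSRP1KO 4dpc (adjusted p = 0.0758). Ampd3, which encodes an AMP deaminase, had 7.26, 7.30 and 6.50 CPM in NT 4dpc against 1.60, 1.69 and 1.75 in NT no crush. That is an increase of 2.06 ± 0.36 (adjusted p = 0.000171; gene 1.93), with no overlap. In SSRP1KO it had 3.95, 2.99 and 3.15 at 4dpc against 1.45, 2.61 and 1.67 without crush. The Ampd3 gene averaged 59.1 CPM in SSRP1KO 4dpc and 23.6 in SSRP1KO no crush. The Ampd3 window also lies in the annotation of Rnf141, for which no crush comparison passed. Mrm1, a mitochondrial rRNA methyltransferase, had 1.47, 2.07 and 1.95 in NT 4dpc against 0.518, 0.383 and 0.519 in NT no crush (1.95 ± 0.54, adjusted p = 0.0196; gene 1.36). In SSRP1KO 4dpc the Mrm1 window was not called (0.61, adjusted p = 0.760), but the gene was (1.32, adjusted p = 0.0112). With the sex score in the model the NT 4dpc values of Mrm1 and Prmt2 were no longer called (adjusted p = 0.172 and 0.0910), while Ampd3 was called in all 37 alternatives. Mrm1 also lost its call without any 1 of the NT no crush libraries and without NT 4dpc replicate 2 or 3 (adjusted p from 0.0535 to 0.107). Between the arms these 3 windows did not pass in the difference of crush responses, at a single time or as the mean of the 5 times.

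Windows in Rin1, which encodes a RAS effector, and in Sh2d6 had no count in any of the 3 NT no crush libraries. Rin1 had 0.551 to 0.752 CPM in NT 4dpc (edgeR, adjusted p = 0.00795), and Sh2d6 0.459 to 1.14 (adjusted p = 0.00809), so no fold is given. Both therefore passed the filter on low counts through groups where they are higher. Their p-values are a description and not independent support. A window outside genes at chr10:84538404-84538428 had a mean of 0.923 in NT 4dpc and 0.106 in NT no crush (adjusted p = 0.0489), and lost the call in 27 of 37 alternatives.

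Among the windows that fell, Slc43a2 was called on days 2 to 4 in both arms. In SSRP1KO cells its level was 39.9, 60.3 and 42.7 CPM without crush, 24.8, 24.5 and 22.9 at 1dpc, 12.8, 19.2 and 29.6 at 2dpc, 16.3, 16.1 and 17.5 at 3dpc, and 13.9, 16.3 and 17.8 at 4dpc. In NT cells it was 41.3, 55.0 and 44.8 without crush, 31.7, 29.5 and 27.1 at 1dpc, 13.8, 22.0 and 11.2 at 2dpc, 12.5, 15.1 and 14.6 at 3dpc, and 8.91, 9.81 and 11.9 at 4dpc. No crushed library of either arm reached the lowest uncrushed one of its arm. At 4dpc the window fell by 1.57 ± 0.26 on the log2 scale in SSRP1KO cells (edgeR, adjusted p = 0.000318; 16.01 ± 1.97 against 47.6 ± 11.1 without crush) and by 2.20 ± 0.27 in NT cells (adjusted p = 5.37e-07; 10.2 ± 1.56 against 47.0 ± 7.09). The gene changed by −1.302 in SSRP1KO cells and −2.26 in NT cells.

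Rasgrp2, which encodes a guanine nucleotide exchange factor for Rap1, also fell in both arms. It had 0.485, 0.564 and 0.587 CPM in SSRP1KO 4dpc against 4.25, 2.75 and 1.47 in SSRP1KO no crush, a change of −2.37 ± 0.59 (edgeR, adjusted p = 0.0219; gene −2.25). In NT 4dpc it had 0.459, 0.516 and 0.133 against 3.20, 3.49 and 2.63 in NT no crush, a change of −3.07 ± 0.62 (adjusted p = 0.00111; gene −3.67). Neither pair of groups overlapped, but the call in SSRP1KO 4dpc was lost without SSRP1KO no crush replicate 1 or any 1 of the SSRP1KO 4dpc libraries (adjusted p from 0.0981 to 0.148). The first Thra window had 32.5, 30.7 and 38.3 in SSRP1KO 4dpc against 63.4, 64.1 and 85.9 in SSRP1KO no crush (−1.07, adjusted p = 0.0075), and 16.3, 28.5 and 25.2 in NT 4dpc against 73.2, 68.8 and 69.2 in NT no crush (−1.59 ± 0.24, adjusted p = 1.67e-05). The Thra gene changed by −0.77 and −1.53. The second Thra window changed by −1.16 in SSRP1KO 4dpc and −1.45 in NT 4dpc, both called. The opposite gene Nr1d1 was lower in NT 4dpc (−1.11, adjusted p = 1.74e-05) and had −0.29 in SSRP1KO 4dpc (adjusted p = 0.337).

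Windows in Gria4, a subunit of AMPA glutamate receptors, and in Pnkd, named after paroxysmal nonkinesigenic dyskinesia, fell in NT cells at 4dpc. Gria4 had 1.38, 1.72 and 2.39 CPM in NT 4dpc against 8.75, 7.35 and 6.003 in NT no crush (−1.99 ± 0.43, edgeR, adjusted p = 0.00258; gene −2.01), and 2.98, 1.13 and 2.24 in SSRP1KO 4dpc against 5.70, 2.68 and 8.84 in SSRP1KO no crush. In SSRP1KO 4dpc the Gria4 window was not called (−1.43, adjusted p = 0.0715), but the gene was (−1.35, adjusted p = 0.000362). The call of the Gria4 window in SSRP1KO 3dpc (−1.55, adjusted p = 0.0476) was lost in 27 of 37 alternatives. Pnkd had 1.38, 2.44 and 2.21 in NT 4dpc against 6.73, 7.16 and 7.59 in NT no crush (−1.80 ± 0.29, adjusted p = 4.43e-05; gene −1.60). In SSRP1KO 4dpc it had 4.05, 3.77 and 4.88 against 7.52, 6.45 and 7.11 in SSRP1KO no crush, which do not overlap but were not called. The Pnkd gene was called there (−1.01, adjusted p = 7.9e-06). With the sex score in the model Gria4 in NT 4dpc had an adjusted p of 0.0520.

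Of CR1, Camta1, Pgm2l1 and Bmpr2 fell. Camta1 had 14.4, 15.7 and 17.3 CPM in SSRP1KO 4dpc against 25.1, 34.2 and 36.6 in SSRP1KO no crush (−1.01 ± 0.23, edgeR, adjusted p = 0.0102; gene −0.63). In NT 4dpc it had 22.7, 21.4 and 24.8 against 45.6, 40.7 and 36.8 in NT no crush (−0.83 ± 0.23, adjusted p = 0.0180; gene −0.83). The groups did not overlap in either arm. Pgm2l1 had 20.6, 24.1 and 26.6 in SSRP1KO 4dpc against 52.1, 32.1 and 80.2 in SSRP1KO no crush (−1.21 ± 0.27, adjusted p = 0.00788; gene −0.75). In NT cells it was called at 3dpc, with 35.5, 32.3 and 28.7 against 67.0, 70.1 and 61.1 without crush (−1.04 ± 0.26, adjusted p = 0.0129). Bmpr2 had 7.17, 6.63 and 6.64 in SSRP1KO 4dpc against 14.6, 11.8 and 16.7 in SSRP1KO no crush (−1.07 ± 0.25, adjusted p = 0.0149; gene −0.91), while NT 4dpc had 6.43, 9.16 and 10.4 against 10.6, 14.3 and 12.7 in NT no crush. In NT 4dpc the Bmpr2 window was not called (−0.53, adjusted p = 0.231), but the gene was (−0.40, adjusted p = 0.0347). Without SSRP1KO no crush replicate 3, which had the highest level of its group in these 3 windows and in both Thra windows, their calls in SSRP1KO 4dpc were lost: Pgm2l1 changed by −0.83 (adjusted p = 0.157), Camta1 by −0.90 (0.0778), Bmpr2 had an adjusted p of 0.101, and the Thra windows changed by −0.91 (0.0726) and −0.97 (0.0515). The same 5 calls were lost without SSRP1KO 4dpc replicate 1 (adjusted p from 0.0619 to 0.110). All but that of the second Thra window were lost without SSRP1KO 4dpc replicate 2 (0.0552 to 0.109), and that of Bmpr2 without replicate 3 (0.0921) and with no filter on low counts (0.114). Camta1 in NT 4dpc lost its call with repeat-table totals (0.162), with no filter on low counts (0.108), with the sex score (0.0596) and without NT no crush replicate 1 or 2 or NT 4dpc replicate 1 or 2 (0.0571 to 0.107), and Pgm2l1 in NT 3dpc lost it with repeat-table totals (0.163) and without NT no crush replicate 2 or NT 3dpc replicate 2 or 3 (0.0613 to 0.0940). A CR1 window outside genes at chr1:173324992-173325016 was the CR1 window that rose, with 0.370, 1.04 and 1.49 CPM in SSRP1KO 3dpc against 0.140, 0 and 0.256 in SSRP1KO no crush (adjusted p = 0.0280). That call was lost with no filter on low counts (0.0978), with repeat-table totals (0.0797), and without SSRP1KO no crush replicate 1 or 2 or SSRP1KO 3dpc replicate 2 or 3 (0.0780 to 0.224).

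**Figure D3:**
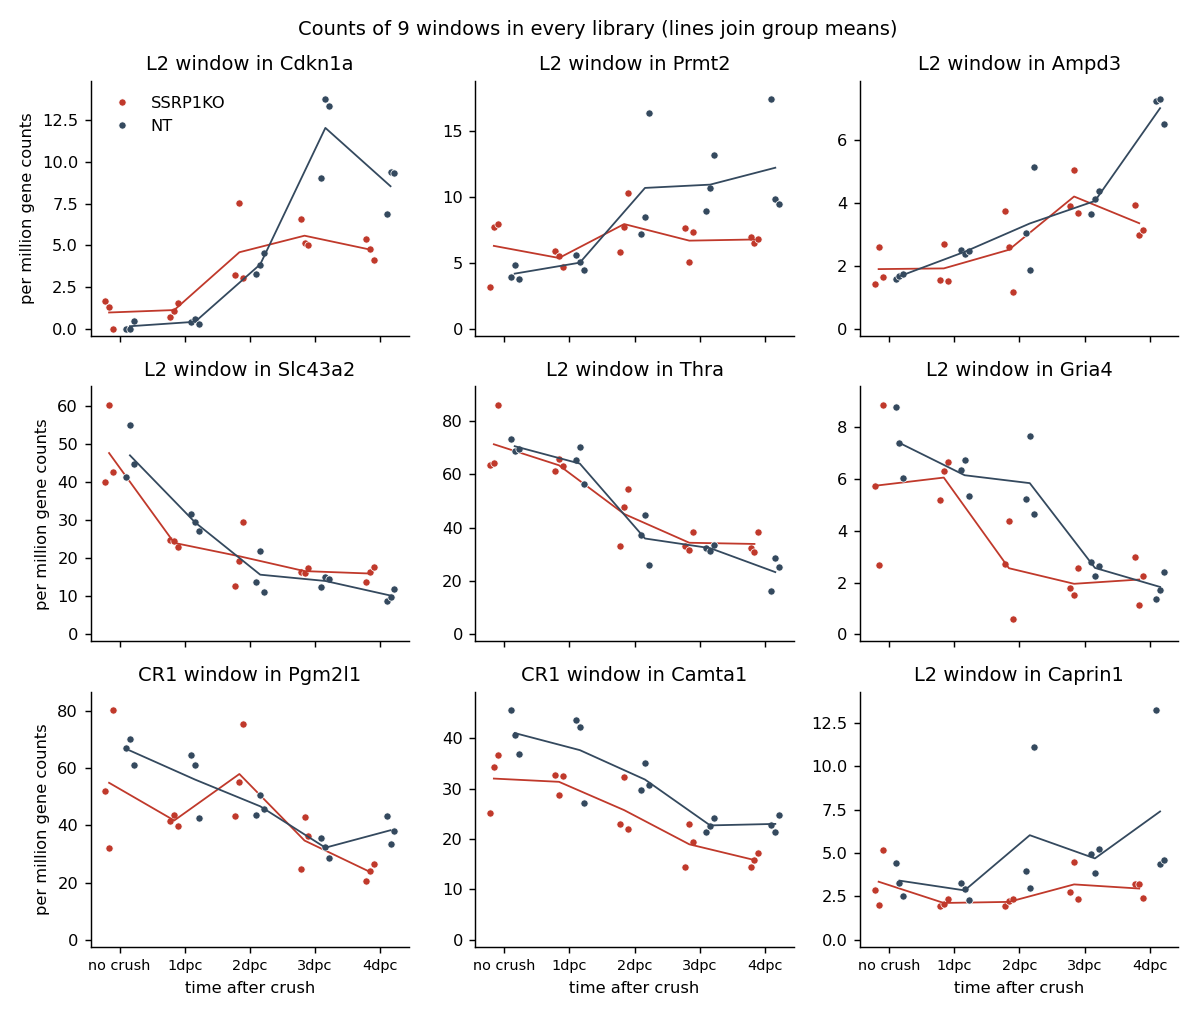
Level of 9 windows in every library, in CPM, by time from no crush to 4dpc; SSRP1KO libraries are the red points on the left of each pair and NT libraries the dark points on the right. The Cdkn1a window reaches 13.7 in NT 3dpc, against at most 0.487 in NT no crush, and the Slc43a2 window stands lower in every crushed library of either arm than in the uncrushed ones of that arm.

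Whether a window changed beyond its gene was tested in a second fit, chosen after the data were seen, with the gene's count as the offset. It covered the 25674 exonic windows of the table with 1 host gene that passed the filter, 81 of them members. No member was called in any of the 15 comparisons. Of all windows, 0.00389%, 0.0195%, 0.0234% and 0.0156% were called in SSRP1KO 1dpc to 4dpc, 0.00389%, 0.0428%, 0.0312% and 0.0623% in NT 1dpc to 4dpc, 0.00779% in SSRP1KO against NT without crush, 0.16% as the mean of the 5 times, and 0.0% in the other comparisons. At an unadjusted p under 0.05 there were 4, 6, 5 and 4 members in SSRP1KO 1dpc to 4dpc and 3, 5, 2 and 7 in NT 1dpc to 4dpc. Among the CR1 calls in SSRP1KO 4dpc, Pgm2l1 and Camta1 had the largest shortfall relative to their genes. It was −0.42 (adjusted p = 0.572) for Pgm2l1 and −0.43 (adjusted p = 0.544) for Camta1. The Bmpr2 window in SSRP1KO 2dpc, called by itself where its gene was not, also fell short of its gene. It averaged 1.04 ± 0.42% of the gene's counts there and 1.53 ± 0.066% in SSRP1KO no crush (SD). Across the 81 windows the change of the window and that of its gene had a Pearson r of 0.754 in SSRP1KO 4dpc and 0.833 in NT 4dpc, a description over windows whose reads can also be counted for the gene; the Thra windows were not among the 81. In both comparisons 63 of the 81 had the same sign, and all of the called windows, 6 in SSRP1KO 4dpc and 9 in NT 4dpc, had a called gene of the same sign.

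Between the arms, no member was called at a single time: none without crush (0.904% of all windows called), at 1dpc (0.0%), 2dpc (0.224%), 3dpc (0.00183%) or 4dpc (0.458%) by edgeR. At an unadjusted p under 0.05 there were 23, 5, 25, 16 and 21 members, and DESeq2 called 2, 0, 2, 0 and 8. The 4 differences between the crush responses, tested together, gave no member either (0.0422% of all windows; 11 at an unadjusted p under 0.05, 1 by DESeq2). As the mean of the 5 times, 10 members were higher and 2 lower in SSRP1KO (7.08% and 1.84% of all windows; 8.92% in either direction), which is 7.14% of the 168. The split was 10 higher and 3 lower with the sex score in the model, 6 and 5 with TMM factors and 9 and 5 with DESeq2; TMM moved the median of all windows by −0.13, to −0.02. With gene-table totals the median change was 0.19 for the members and 0.12 for all windows.

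The 2 lower windows were those of Caprin1 and Camta1. Caprin1 encodes an RNA-binding protein of stress granules, and its L2 window carries CTCAATAAA. In SSRP1KO cells it had 2.85, 1.99 and 5.19 CPM without crush, 1.92, 2.07 and 2.37 at 1dpc, 1.94, 2.24 and 2.37 at 2dpc, 2.73, 4.48 and 2.36 at 3dpc, and 3.22, 3.21 and 2.42 at 4dpc. In NT cells it had 4.42, 3.29 and 2.50 without crush, 3.29, 2.93 and 2.31 at 1dpc, 3.96, 2.98 and 11.1 at 2dpc, 4.94, 3.87 and 5.25 at 3dpc, and 13.2, 4.34 and 4.60 at 4dpc. The arms did not overlap at 2dpc and 4dpc, and in NT cells 1 library at each of these times stood far above the other 2. The mean was 2.76 ± 0.948 in SSRP1KO and 4.87 ± 3.11 in NT (SD, n = 15 each), a difference of −0.75 ± 0.19 (SE; edgeR, adjusted p = 0.00869), negative at all 5 times. The call held in all 37 alternatives. Without NT 2dpc replicate 3 the difference was −0.60. No alternative left out both high NT libraries, NT 2dpc replicate 3 (11.1) and NT 4dpc replicate 1 (13.2). Ssrp1 itself had 33.5 and 43.4 CPM in these libraries, against 57.7 to 98.7 in the other NT libraries. No single time passed (2dpc −1.43, adjusted p = 0.114; 4dpc −1.30, adjusted p = 0.170). The Caprin1 gene had a difference of 0.00 (adjusted p = 0.99), and the window relative to its gene −0.75 (adjusted p = 0.208), with 0.713 ± 0.290 window counts per 100 gene counts in SSRP1KO and 1.28 ± 0.984 in NT.

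Camta1 averaged 24.8 ± 7.64 CPM in SSRP1KO and 31.2 ± 8.72 in NT (n = 15 each), a difference of −0.35 ± 0.10 (edgeR, adjusted p = 0.0262), lower at all 5 times; its gene differed by −0.23 (adjusted p = 0.0112). The call was lost in 11 of 37 alternatives, 8 of which left out 1 library (adjusted p from 0.0518 to 0.0615). Of the 10 higher windows, all of L2, 9 averaged under 1 CPM in both arms; none met the rule for naming, and those that follow were chosen after their values were seen. A window outside genes at chr15:52465082-52465106 had a count in 14 of 15 SSRP1KO libraries and 2 of 15 NT libraries, with means of 0.239 and 0.0147 CPM (adjusted p = 0.00145). One at chr3:107924978-107925002 had a count in 15 and 7 libraries, with means of 0.275 in SSRP1KO and 0.0460 in NT (adjusted p = 0.00463). Both kept their calls in every alternative that tested them. The NT means of both, and of the Trim9 window below, lie under the floor of 3 counts. These windows therefore passed the filter on low counts through SSRP1KO libraries, where they are high. Their p-values and kept calls are a description and not independent support. The Efna3, Alk and Nfatc2 windows below had no count in NT no crush, NT 2dpc and NT 4dpc, respectively. They were highest in SSRP1KO groups, and the same limit applies to them. An intronic window in Trim9 had a count in 12 SSRP1KO and 3 NT libraries (0.246 and 0.0211 CPM) and lost its call without SSRP1KO no crush replicate 1 (adjusted p = 1.00), one in Efna3 in 13 and 3, one in Alk in 10 and 7, and one in Ankef1 in 15 and 15 (0.675 and 0.304). The call was lost in 1 of 37 alternatives for Efna3 (the replicate block, adjusted p = 0.0604), in 20 for Alk (adjusted p up to 0.166) and in 22 for Ankef1 (up to 0.149). An exonic window of Nfatc2 had 0.462 in SSRP1KO and 0.139 in NT, and lost its call without SSRP1KO 2dpc replicate 5, where it stood at 2.24 (adjusted p = 0.0807), without the 3 libraries that stand apart (0.0675) and with the replicate block (0.231). Cyp46a1, which encodes cholesterol 24-hydroxylase, had 2.70 ± 0.610 in SSRP1KO and 1.93 ± 0.706 in NT (0.51 ± 0.16, adjusted p = 0.0388), was higher at 4 of the 5 times and lost its call in 27 of 37 alternatives. The other 2 lie on a chromosome whose windows are counted but not named. The chr15, chr3, Trim9, Alk and Ankef1 windows had their highest group mean in SSRP1KO no crush (0.485, 0.461, 0.358, 0.759 and 1.09 CPM). In that group Ssrp1 was not lower than in NT no crush (58.0 against 59.6 CPM). Efna3 and Nfatc2 were highest in SSRP1KO 2dpc and Cyp46a1 in SSRP1KO 4dpc. The intronic members together ran from 11.1 to 80.0 CPM over the 30 libraries, with the highest value in SSRP1KO 2dpc replicate 5, and their part in these low levels was not tested.

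The summed level of each family was lower at 4dpc than without crush in both arms. L2 averaged 449.0 ± 12.8, 364.5 ± 7.496, 372.3 ± 94.0, 321.8 ± 2.54 and 317.1 ± 4.00 CPM in SSRP1KO cells from no crush to 4dpc, and 401 ± 27.5, 361 ± 17.8, 318 ± 24.5, 324 ± 19.9 and 286 ± 12.8 in NT cells (SD, n = 3). CR1 averaged 152 ± 34.9, 120 ± 1.05, 137 ± 21.5, 109 ± 18.4 and 88.9 ± 1.86 in SSRP1KO cells, and 167 ± 9.27, 146 ± 23.0, 137 ± 10.3, 108 ± 4.33 and 117 ± 7.33 in NT cells. L2 fell in SSRP1KO 3dpc (−0.48, edgeR over 197 families, adjusted p = 0.0431, with 2.03% of families called; the call was lost in 23 of the 30 fits that left out 1 library) and 4dpc (−0.50, adjusted p = 0.0187; 3.55%), and in NT 4dpc (−0.49 ± 0.13, adjusted p = 0.0230; 3.55%). CR1 fell in SSRP1KO 4dpc (−0.77 ± 0.15, adjusted p = 0.0022; 3.55%) and in NT 3dpc (−0.63 ± 0.15, adjusted p = 0.0229; 3.05%), and had −0.52 in NT 4dpc (adjusted p = 0.0580). Without the 10 highest windows of each family, or without exonic windows, none of these 5 falls passed. The change without the 10 highest and without exonic windows was −0.19 and −0.48 for L2 in SSRP1KO 3dpc, −0.16 and −0.24 for L2 in SSRP1KO 4dpc, 0.05 and −0.07 for L2 in NT 4dpc, −0.10 and −0.32 for CR1 in SSRP1KO 4dpc, and −0.12 and −0.0053 for CR1 in NT 3dpc. Without exonic windows the SE was 0.34 for L2 and 0.27 for CR1, so the L2 change in SSRP1KO 3dpc was as large as with them and less precise. Of the 6 fits that left out 1 library of the groups compared, 5 lost the call for L2 in SSRP1KO 4dpc (all but that without SSRP1KO no crush replicate 1), for L2 in NT 4dpc and for CR1 in NT 3dpc (both all but that without NT no crush replicate 3), with adjusted p from 0.0509 to 0.175. CR1 in SSRP1KO 4dpc passed with each of the 30 libraries left out. Between the arms as the mean of the 5 times, L2 differed by 0.11 (adjusted p = 0.226) and CR1 by −0.16 (adjusted p = 0.146), with 12.7% of families called; with TMM factors CR1 passed at −0.28 (adjusted p = 0.00533) and L2 turned to −0.02. In the comparisons where neither family passed, 1.52% and 1.02% of families were called in SSRP1KO 1dpc and 2dpc, 0.0% and 0.508% in NT 1dpc and 2dpc, and 5.08% in SSRP1KO against NT without crush. The difference of crush responses had an adjusted p of 0.833 for L2 and 0.811 for CR1.

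**Figure D4:**
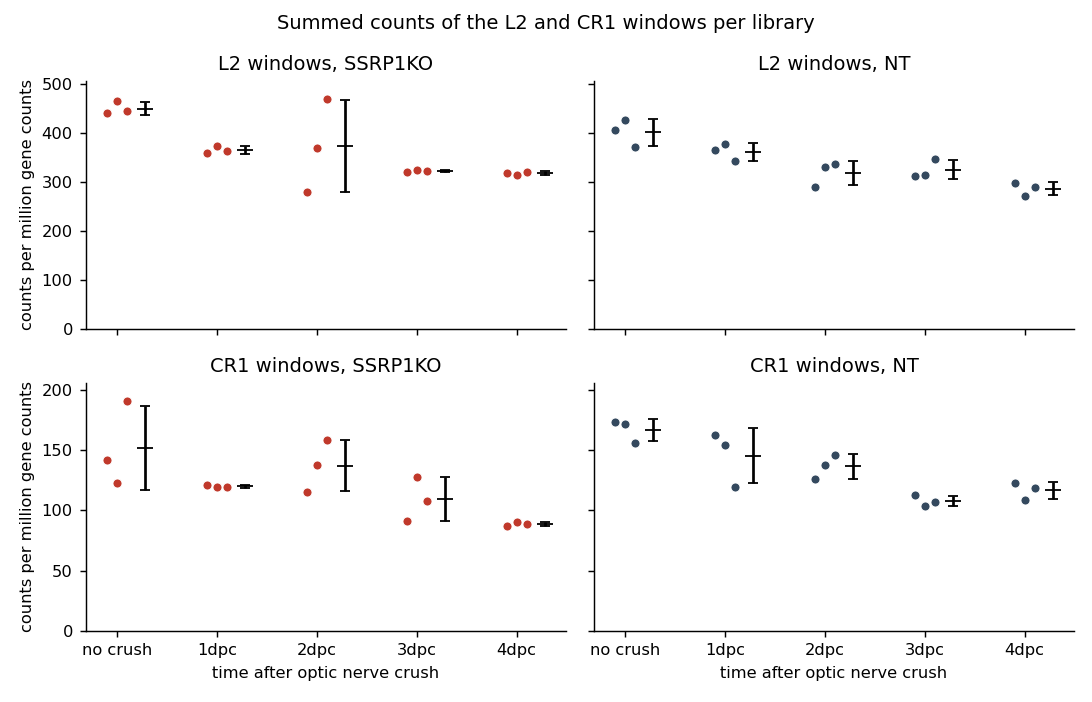
Summed counts of all L2 windows and all CR1 windows, in CPM, in each library, SSRP1KO in the left column and NT in the right, from no crush to 4dpc; points are libraries and bars the mean ± SD of 3. L2 stands at 449.0 in SSRP1KO no crush and 317.1 in SSRP1KO 4dpc, and CR1 at 152 and 88.9.

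Genes that silence repeats or act on their RNA were read in the gene table, from a list of 25 that were all tested. After crush, 0 rose and 2 fell in SSRP1KO 1dpc (4.79% of all genes called), 2 rose and 1 fell at 2dpc (11.5%), 3dpc (13.8%) and 4dpc (12.7%). In NT cells 1 rose at 1dpc (2.05%), 2 rose at 2dpc (18.7%), 4 rose and 1 fell at 3dpc (24.7%), and 3 rose and 2 fell at 4dpc (27.4%). Zc3hav1, which encodes the antiviral RNA-binding protein ZAP, rose by 2.08, 2.25 and 2.166 on the log2 scale in SSRP1KO 2dpc to 4dpc and by 1.56, 2.12, 2.56 and 2.68 in NT 1dpc to 4dpc. Dnmt1, the maintenance DNA methyltransferase, rose by 0.61 and 0.51 in SSRP1KO 3dpc and 4dpc and by 0.83, 0.93 and 1.04 in NT 2dpc to 4dpc. Ehmt2, a histone H3 lysine methyltransferase, fell in SSRP1KO cells on all 4 days (−0.65, −0.77, −0.66 and −0.53), and Dnmt3a, a de novo DNA methyltransferase, fell in NT 3dpc and 4dpc (−0.82 and −0.53). Between the arms as the mean of the 5 times, Hells (0.58) and Cbx5 (0.22) were higher and Atf7ip (−0.17) and Mphosph8 (−0.25) lower in SSRP1KO, with 21.2% of all genes called.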

How the data were processed

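For the 30 libraries, the deposited tables hold raw counts per gene symbol and raw counts per short window, most with a repeat element name. Per the labels' protocols, libraries were made from sorted cells with SMART-Seq v4 and sequenced as paired reads on a HiSeq4000. The submitters' processing notes name GRCm38 (mm10), bcl2fastq 2.17, STAR and HTSeq; the strand setting, the handling of reads with several hits and of overlapping genes, and how the windows were chosen were not given in the sources used here. Their effect on these windows was not tested.

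Members and lists were chosen with earlier results of these data known. Counts of the gene table (24033 symbols, after 27 date-like symbols with at most 0.275% of a library's counts were left out) gave the library sizes, with no further factors, for every fit. edgeR 4.0.16 in R 4.3.3 was run with filterByExpr on the 10 groups and the quasi-likelihood test, 1 coefficient per group, over all 54536 windows, 197 family sums and 16621 genes that passed the filter, two-sided, with Benjamini-Hochberg adjustment over all features of a table and a threshold of 0.05. The fits were tested on simulated data. Windows were placed with the GENCODE M21 annotation of GRCm38 and exonic sequences read from its transcripts; an exon took precedence over an intron. The text names the 10 L2 and 5 CR1 windows of highest mean and, for the comparisons, the largest changes that passed the threshold, reached 1 CPM in the higher group and did not overlap between libraries, and every CR1 window that passed in the 2 comparisons at 4dpc or the mean of the 5 times. Windows on 1 chromosome are counted and not named. A further window that the rule names is not reported here. Alternatives were DESeq2 1.42.0, TMM, repeat-table totals, no filter, the replicate number as a block, the sex score as a covariate, family sums without top or exonic rows, each library left out, and, chosen after seeing the data, the offset fit and a fit without the 3 libraries that stand apart. No 2 libraries of a group agreed within sampling noise.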

Additional observations from a re-analysis of the deposited data

How the results depend on the processing

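Of the 64 single-window calls outside the unnamed chromosome, 19 held under every alternative and none changed direction. Those that held include Cdkn1a and Slc43a2 in NT 2dpc to 4dpc, both Thra windows in NT 4dpc, Slc43a2 in SSRP1KO 3dpc and 4dpc, and Caprin1 as the mean of the 5 times. Those lost most often were Bmpr2 in SSRP1KO 2dpc (in 33 of 37 alternatives), Gria4 in SSRP1KO 3dpc, Cyp46a1 as the mean of the 5 times and the chromosome 10 window in NT 4dpc (27 each), Rasgrp2 in SSRP1KO 2dpc (26), and Ankef1 (22) and Alk (20) as the mean of the 5 times. No 2 rows had the same coordinates, so merging such rows changed nothing. The fit against the host gene, rerun with the replicate block, with the sex score, without the 3 libraries that stand apart and without each library, called no member in any of these. The cause of the changes below was not tested. Changes are on the log2 scale, p-values are adjusted (edgeR unless DESeq2 is named), and a comparison named by a group and day alone is against no crush.

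DESeq2 called 1 window in NT 1dpc, 13 in NT 2dpc, 3 in SSRP1KO 1dpc, 11 in SSRP1KO 3dpc, 2 in uncrushed SSRP1KO against uncrushed NT, 2 between the arms at 2dpc, 8 at 4dpc and 1 for the difference of crush responses. By DESeq2, L2 passed in NT 2dpc (−0.41, adjusted p = 0.0362) and NT 3dpc (−0.41, adjusted p = 0.0254), and CR1 in NT 4dpc (−0.55, adjusted p = 0.0211), SSRP1KO against NT at 4dpc (−0.58, adjusted p = 0.00759) and as the mean of the 5 times (−0.27, adjusted p = 0.00253). It turned L2 in SSRP1KO against NT to −0.043 without crush, −0.039 at 4dpc and −0.0085 as the mean, and CR1 to −0.11 at 2dpc and −0.076 at 3dpc. TMM factors called 2 windows in SSRP1KO 2dpc, lost L2 in SSRP1KO 3dpc (−0.44, adjusted p = 0.0781), gave CR1 passes in NT 4dpc (−0.55, adjusted p = 0.0383), SSRP1KO against NT at 4dpc (−0.59, adjusted p = 0.0379) and as the mean (−0.28, adjusted p = 0.00533), and turned L2 against NT to −0.075 without crush, −0.044 at 4dpc and −0.018 as the mean, and CR1 to −0.12 at 2dpc and −0.086 at 3dpc. Repeat-table totals called 8 windows in NT 3dpc, 21 in SSRP1KO 1dpc (all lower), 13 in SSRP1KO 4dpc (1 higher and 12 lower) and 1 between the uncrushed arms. With them L2 in SSRP1KO 1dpc was −0.91 (adjusted p = 0.00481) and CR1 −1.01 (adjusted p = 0.00632), L2 in NT 4dpc −0.46 (adjusted p = 0.390) and CR1 in NT 3dpc −0.53 (adjusted p = 0.557), L2 against NT −0.18 at 1dpc and −0.21 at 4dpc, and CR1 against NT 0.20 without crush, −0.028 at 2dpc and −0.17 at 3dpc. They moved the median of all windows by up to −0.61, in SSRP1KO 1dpc.

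With no filter on low counts 1 window was called in NT 1dpc, 2 in SSRP1KO 1dpc, 2 in SSRP1KO 2dpc, 2 between the uncrushed arms, 3 between the arms at 2dpc and 1 for the difference of crush responses. With the sex score 8 were called in NT 4dpc, 1 in SSRP1KO 2dpc and 2 in SSRP1KO against NT at 4dpc; L2 had −0.54 in NT 4dpc (adjusted p = 0.0864) and −0.46 in SSRP1KO 3dpc (adjusted p = 0.103), and CR1 0.11 in SSRP1KO 2dpc and −0.072 in SSRP1KO against NT at 3dpc. Without the 3 libraries that stand apart 4 were called in SSRP1KO 1dpc, 5 between the uncrushed arms, 5 between the arms at 4dpc and 1 for the difference of crush responses; L2 passed in SSRP1KO 1dpc (−0.31, adjusted p = 0.0490) and 2dpc (−0.48, adjusted p = 0.0192), CR1 in NT 4dpc (−0.52, adjusted p = 0.00816) and as the mean of the 5 times (−0.21, adjusted p = 0.0241), and CR1 against NT at 2dpc was −0.059.

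Without the 10 top windows L2 had −0.39 in SSRP1KO 1dpc (adjusted p = 0.0495), −0.19 in SSRP1KO 3dpc (adjusted p = 0.580), −0.16 in SSRP1KO 4dpc (adjusted p = 0.908), 0.063 in NT 2dpc, 0.15 in NT 3dpc, 0.049 in NT 4dpc and 0.029 in SSRP1KO 2dpc. CR1 had −0.59 in SSRP1KO 1dpc (adjusted p = 0.0205), −0.12 in NT 3dpc (adjusted p = 0.985), −0.10 in SSRP1KO 4dpc (adjusted p = 0.919), and against NT 0.079 without crush and 0.14 at 4dpc. Without exonic windows L2 had −0.073 in NT 4dpc (adjusted p = 0.935), −0.48 in SSRP1KO 3dpc (adjusted p = 0.690), −0.24 in SSRP1KO 4dpc (adjusted p = 0.963), 0.15 in NT 2dpc, 0.17 in SSRP1KO 2dpc, and against NT −0.13 at 1dpc and 0.31 at 3dpc. CR1 had −0.0053 in NT 3dpc (adjusted p = 0.984), −0.32 in SSRP1KO 4dpc (adjusted p = 0.963), 0.49 in NT 2dpc, 0.062 in NT 4dpc, and against NT 0.16 without crush, −0.54 at 2dpc and −0.045 at 3dpc.

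The replicate numbers do not pair libraries: over 117 pairs with the same number the median correlation of deviations was −0.011, against 0.004 over 288 other pairs. With the replicate block 2 windows were called in SSRP1KO 1dpc, 1 in SSRP1KO 2dpc, 1 between the uncrushed arms and 6 as the mean of the 5 times; L2 passed in NT 2dpc (−0.33, adjusted p = 0.0494), SSRP1KO 1dpc (−0.30, adjusted p = 0.0245) and SSRP1KO 2dpc (−0.68, adjusted p = 0.00447), CR1 in NT 4dpc (−0.52, adjusted p = 0.0339), and against NT at 2dpc L2 was −0.18 and CR1 −0.26.

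Leaving out each of the 30 libraries in turn, the windows called ranged from 3 to 9 in NT 2dpc, 7 to 15 in NT 3dpc, 0 to 3 in SSRP1KO 1dpc, 0 to 4 in SSRP1KO 2dpc, 2 to 8 in SSRP1KO 3dpc, 1 to 10 in SSRP1KO 4dpc, 0 to 2 between the uncrushed arms, 0 to 2 between the arms at 2dpc, 0 to 1 at 4dpc, 7 to 18 as the mean of the 5 times and 0 to 1 for the difference of crush responses. The lowest count in SSRP1KO 4dpc came without SSRP1KO 4dpc replicate 1, and that in NT 2dpc and 3dpc without NT no crush replicate 2. In NT 3dpc the lowest was also reached without NT 3dpc replicate 3, and in NT 2dpc without NT 2dpc replicate 3. SSRP1KO 2dpc had no call without SSRP1KO no crush replicate 2, SSRP1KO 3dpc had 2 without SSRP1KO 3dpc replicate 1, and the mean of the 5 times had 7 without SSRP1KO no crush replicate 1. L2 ranged from −0.39 to −0.27 in NT 2dpc, −0.54 to −0.44 in NT 4dpc (lost in 5 of 30), −0.32 to −0.28 in SSRP1KO 1dpc, −0.47 to −0.10 in SSRP1KO 2dpc, −0.49 to −0.46 in SSRP1KO 3dpc (lost in 23) and −0.52 to −0.48 in SSRP1KO 4dpc (lost in 5). Against NT it ranged from −0.023 to 0.047 at 1dpc, 0.030 to 0.40 at 2dpc, −0.040 to 0.041 at 3dpc and 0.070 to 0.14 as the mean of the 5 times. CR1 ranged from −0.68 to −0.60 in NT 3dpc (lost in 5), −0.56 to −0.47 in NT 4dpc (passed in 6), −0.28 to 0.052 in SSRP1KO 2dpc and −0.60 to −0.28 in SSRP1KO 3dpc. Against NT it ranged from −0.11 to 0.12 at 2dpc, −0.11 to 0.13 at 3dpc and −0.20 to −0.13 as the mean. In SSRP1KO 4dpc CR1 passed in all 30 (−0.90 to −0.57).

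Depth limits the low windows most: 62 members had no count, and under 1 CPM a library holds few counts of a window. With 3 libraries a group, a p above the threshold does not show that values did not differ.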
